A study of Mus musculus with 16 samples.

Results

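The serpins are a family of proteins that share one fold, and most of them are inhibitors of serine proteases. They were taken here as every gene whose only symbol in the probe table begins with Serpin, which gave 40 of the 18193 genes with 1 symbol. Where a gene had several probe sets, the one with the highest mean signal over the 16 arrays stood for it. RNA came from the distal stump of the sciatic nerve of 2 strains of mice aged 8 to 12 weeks: C57BL/6 mice, labelled wild type, and C57BL/6 OlaHsd-Wlds mice, labelled WldS mutant and called WldS here. The left sciatic nerve was crushed at mid-thigh, except in naive mice, which gave the day 0 nerves. On day 3, 7 or 14 the stretch of nerve lying between 1 and 5 mm beyond the crush was taken, freed of connective tissue and pooled with others of its group before RNA extraction. Each of the 8 groups has 2 arrays, described as biological replicates, from 56 mice per strain in all. The p-values therefore measure the spread between pools, and the number of arrays limits their precision.

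A serpin presents a loop that a protease cuts as if it were a substrate, after which the protease is trapped in a distorted, inactive complex. The secreted members control thrombin, plasmin, complement C1 and leukocyte proteases outside cells, the B clade works mainly inside cells, and a few members, such as the collagen chaperone Serpinh1, inhibit no protease. After a crush, axons beyond the lesion break down, Schwann cells shed their myelin and macrophages enter to clear it. The WldS mutation makes a fusion protein that holds the enzyme Nmnat1 and delays the breakdown of cut axons.

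Of the 40 serpins, 22 passed a filter on dim signal, set at the 30th percentile of probe set means (log2 5.37), against 14545 of all genes (55% and 79.9%). These were 7 of 14 members of clade A, 9 of 18 of clade B, 1 of 2 of clade I, both of clade F and the single members of clades D, G and H. The single member of clade C, Serpinc1 (antithrombin), lay below it. Serpins whose symbol is not among these 40 were not analysed here. Each comparison was tested with limma over the 14545 genes, and a gene was called at a Benjamini-Hochberg adjusted p below 0.05. Differences are on the log2 scale, ± the standard error (SE) of that fit.

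The arrays had medians between 6.42 and 6.49. Nmnat1, part of the WldS fusion gene, read 8.50 to 9.35 on the WldS arrays and 5.42 to 6.34 on the C57BL/6 arrays, as the labels require. The log2 ratio of 3' to 5' control probe signal, a sign of RNA quality, is called the 3'/5' ratio here. It was 3.81 on WldS day 0 replicate 1 and 3.23 on WldS day 14 replicate 2, against at most 2.46 on the others. On the C57BL/6 arrays it was 2.29 and 2.36 on day 0 and 1.63 to 2.17 after crush. The ratio and injury were thus not independent in that strain either. The 6 measured genes of the 9 listed as markers of myelinating Schwann cells averaged 12.26 and 12.15 on the uninjured C57BL/6 arrays and 12.00 and 12.30 on the uninjured WldS arrays. A list of 7 liver genes averaged only 5.57 to 5.84 over the 16 arrays, although liver is the known source of many serpins.

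In C57BL/6 nerves, 8 of the 22 serpins were called on day 3, 3 higher and 5 lower than on day 0, while 41% of all genes tested were called (22.6% higher, 18.4% lower). On day 7 the count was 5 (2 higher, 3 lower), beside 36.1% of all genes (19.6% higher, 16.4% lower). On day 14 it was 8 (2 higher, 6 lower), beside 33.7% (17.1% higher, 16.7% lower). The WldS nerves had 9 called on day 3 (6 higher, 3 lower), beside 36% of all genes (20.8% and 15.2%). They had 10 on day 7 (6 higher, 4 lower), beside 35.2% (21.9% and 13.3%), and 5 on day 14 (2 higher, 3 lower), beside 21.3% (12.7% and 8.56%). The shares of the 22 called, 22.7% to 45.5%, thus lay near those of genes at large, and the median change stayed between -0.06 and 0.02, beside -0.02 to 0.02 for all genes tested. In all, 14 serpins were called against day 0 in at least 1 strain. The 7 called in both were Serpina1c, Serpinb1a, Serpinb6b, Serpinb6c, Serpinb8, Serpind1 and Serpinh1. The matching shares of all genes were not counted, so these pooled counts cannot be set against genes at large.

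**Figure D1:**
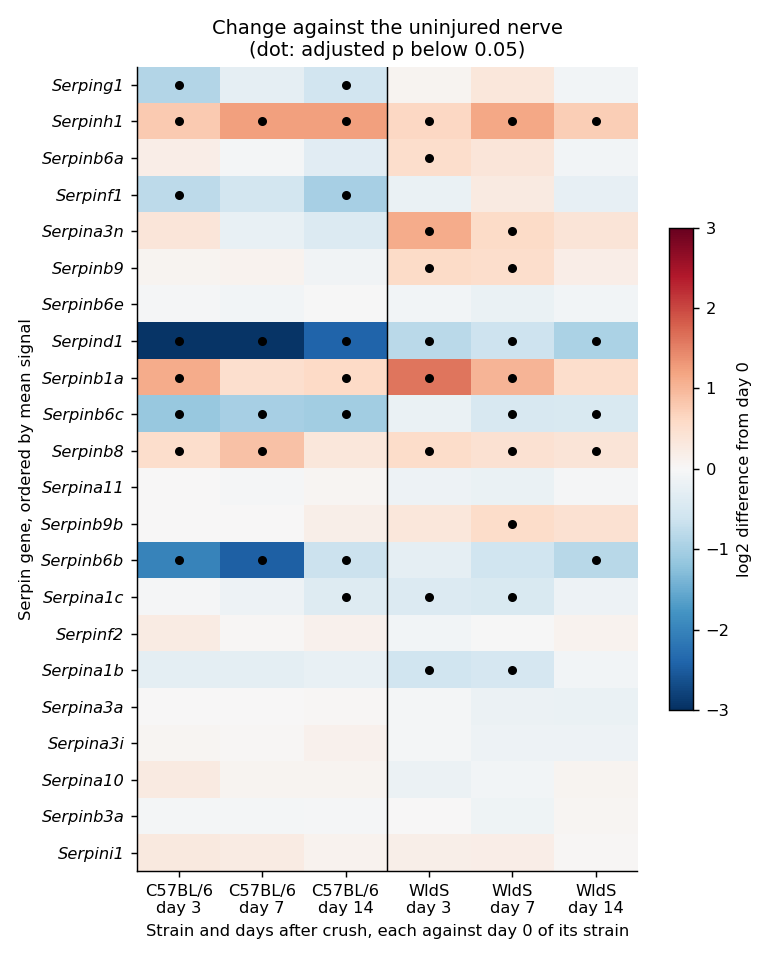
Log2 difference from day 0 of the same strain for the 22 serpins that passed the dim filter (rows, ordered by mean signal) on days 3, 7 and 14 in C57BL/6 and WldS (columns, groups of 2 arrays). A dot marks an adjusted p below 0.05. Serpind1 and Serpinb6b are the darkest cells on the C57BL/6 side, at -2.93 and -2.01 on day 3, and Serpinh1 is called in all 6 columns.

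Sequence around the start site is shown for 3 serpins that fell after crush and differed between strains, Serpind1, Serpinb6b and Serpinb6c, and for Serpinb2, which was high for a short time. Each is the RefSeq promoter window of build GRCm38.p6, from 250 bases before to 50 bases after the annotated start, read 5' to 3' on the gene's strand. Capitals mark matches, on either strand, to 4 motifs. These are TGANTCA, which AP-1 proteins bind, GAANNTTC, the TATA box, spelled TATAAA, and the CCAAT box. GAANNTTC is only a part of a heat shock element and is called the heat shock motif here. No motif overlapped another in these windows. Of the 32851 windows of 300 bases in the table, 7.81% held the AP-1 motif, 7.86% the heat shock motif, 13.6% the TATA box and 37.4% the CCAAT box.
Serpind1 (chr16:17331121-17331420, + strand): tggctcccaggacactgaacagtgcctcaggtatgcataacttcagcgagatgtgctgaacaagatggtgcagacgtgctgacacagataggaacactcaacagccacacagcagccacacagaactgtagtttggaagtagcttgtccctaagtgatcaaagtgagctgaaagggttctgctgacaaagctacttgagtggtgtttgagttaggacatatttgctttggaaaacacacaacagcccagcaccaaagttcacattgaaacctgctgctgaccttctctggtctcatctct
Serpinb6b (chr13:32965011-32965310, + strand): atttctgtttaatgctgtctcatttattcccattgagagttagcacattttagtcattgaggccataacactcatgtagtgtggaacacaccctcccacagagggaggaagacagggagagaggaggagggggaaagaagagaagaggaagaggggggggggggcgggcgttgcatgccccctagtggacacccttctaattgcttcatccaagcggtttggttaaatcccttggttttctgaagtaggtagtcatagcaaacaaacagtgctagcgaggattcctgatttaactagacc
Serpinb6c (chr13:33905142-33905441, - strand): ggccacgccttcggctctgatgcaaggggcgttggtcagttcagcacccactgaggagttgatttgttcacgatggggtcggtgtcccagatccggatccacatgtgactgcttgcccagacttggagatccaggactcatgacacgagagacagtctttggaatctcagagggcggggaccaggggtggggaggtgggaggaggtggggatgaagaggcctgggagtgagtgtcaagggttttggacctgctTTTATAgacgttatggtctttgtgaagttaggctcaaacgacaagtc
Serpinb2 (chr1:107511173-107511472, + strand): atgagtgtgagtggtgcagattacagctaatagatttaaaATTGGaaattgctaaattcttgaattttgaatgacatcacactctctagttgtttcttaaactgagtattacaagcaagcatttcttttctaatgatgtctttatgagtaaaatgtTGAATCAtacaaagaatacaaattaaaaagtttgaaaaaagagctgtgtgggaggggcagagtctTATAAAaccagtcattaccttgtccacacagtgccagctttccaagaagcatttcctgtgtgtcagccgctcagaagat
The Serpinb2 window shown, that of the first of 2 annotated starts, held the AP-1 motif from base -94 relative to the start, a TATA box from base -29 and a CCAAT box on the opposite strand from base -210. Relative to the second start, the same AP-1 motif and TATA box lie from bases -181 and -116, and that window holds no CCAAT box. The Serpinb6c window held TATAAA on the opposite strand, just past the start. No motif of the 4 was found in the Serpind1 and Serpinb6b windows, which says only that these letters are not in these windows. Over the family, 34 of 40 members matched the table with 40 windows, of which 9 held the AP-1 motif, 5 the heat shock motif, 11 the TATA box and 15 the CCAAT box. Of the 21 windows of members that passed the dim filter, 3, 1, 3 and 8 held these motifs. Windows of a gene with several starts can overlap, so the same letters can be counted more than once, as for Serpinb2.

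Serpind1 (heparin cofactor II), a secreted inhibitor of thrombin that works with heparin and dermatan sulfate, had the largest change of the 22. In C57BL/6 its log2 signal was 9.65 and 9.55 on day 0, 6.58 and 6.75 on day 3, 6.76 and 6.57 on day 7, and 7.01 and 7.37 on day 14. In WldS it was 8.75 and 9.45 on day 0, 8.25 and 8.31 on day 3, 8.44 and 8.51 on day 7, and 8.46 and 7.81 on day 14. Every injured C57BL/6 array lay below every uninjured one and below every injured WldS array. The fall in C57BL/6 was -2.93 ± 0.22 on day 3 (7.63-fold, limma adjusted p = 1.21e-07), -2.93 ± 0.22 on day 7 (1.78e-07) and -2.41 ± 0.22 on day 14 (1.95e-06). It ranked 65th, 52nd and 38th among all genes by size of decrease on those days.

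In WldS, Serpind1 fell by 0.82 ± 0.22 on day 3 (limma adjusted p = 0.01), by 0.62 ± 0.22 on day 7 (0.0417) and by 0.96 ± 0.22 on day 14 (0.00671). The call on day 7 was lost in 13 of 27 settings, among them the replicate block (-0.62, 0.0527), median centring (-0.59, 0.0618) and fits without either array of C57BL/6 day 0 or 7 or of WldS day 3 or 7 (adjusted p = 0.0536 to 0.133). All 3 calls were lost without 1 uninjured WldS array. Without replicate 2 of day 0 the changes were -0.47, -0.27 and -0.61 (adjusted p = 0.113, 0.364 and 0.0651), and without both arrays of high 3'/5' ratio they were -1.18, -0.98 and -1.0. The strains differed in the change itself: the interaction, which is the WldS change minus the C57BL/6 change, was 2.11 ± 0.31 on day 3 (limma adjusted p = 0.000878), 2.31 ± 0.31 on day 7 (0.000738) and 1.44 ± 0.31 on day 14 (0.0345). The values of days 3 and 7 held in all 27 alternative settings, and that of day 14 was lost in 12 of them, 10 of them fits without 1 array (either array of C57BL/6 day 0, 7 or 14 or of WldS day 3, or replicate 1 of WldS day 0 or 14), which gave 1.09 to 1.62 with adjusted p from 0.0533 to 0.158.

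**Figure D2:**
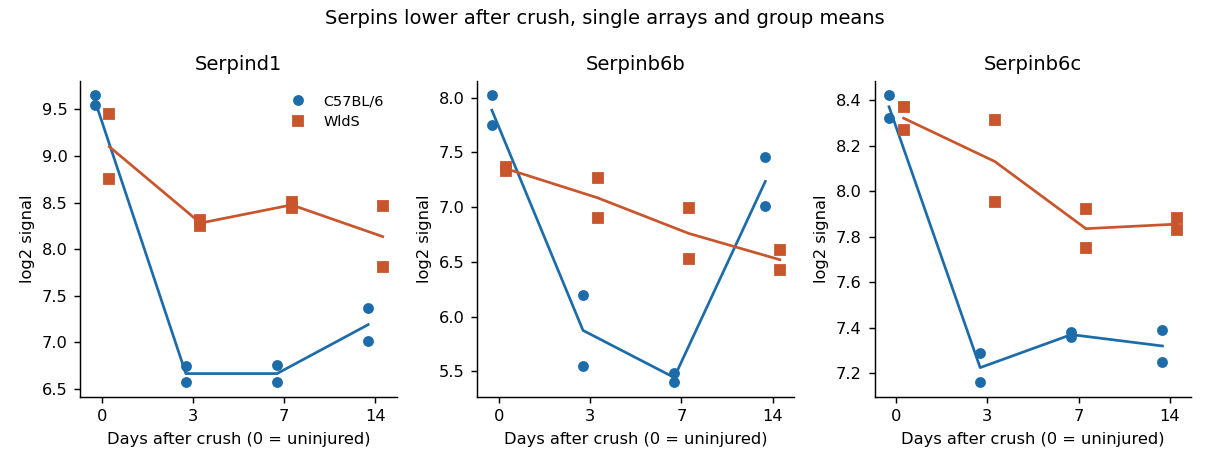
Log2 signal of Serpind1, Serpinb6b and Serpinb6c on each array (circles C57BL/6, squares WldS) with lines through the group means, by days after crush. The C57BL/6 arrays of Serpind1 drop from 9.65 and 9.55 to 6.58 and 6.75 by day 3, and those of Serpinb6b come back to 7.01 and 7.46 by day 14.

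Serpind1 overlaps Pi4ka, a lipid kinase gene, in the RefSeq gene table. Pi4ka, looked at for that reason and outside the naming rule, read 10.91 and 10.47 on day 0 and 10.71 and 10.41 on day 3 in C57BL/6. Its change was -0.13 ± 0.15 on day 3 (limma adjusted p = 0.554), and its interaction on day 3 was 0.04 ± 0.21 (0.935), neither past the threshold.

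Markers of cells in the segment moved in the same samples as Serpind1. In C57BL/6 all 6 myelin genes measured were lower on day 3 (median -2.02) and on day 7 (-1.40), but only 2 of 6 on day 14 (-0.10), and the list averaged 9.83 and 9.75, 10.32 and 10.37, and 11.84 and 11.98 on those days. Serpind1 was still at 7.01 and 7.37 on day 14. Of the 6 adipocyte genes measured, 5 were lower on day 3 (median -1.97) and all 6 on days 7 and 14 (-2.02 and -1.75), with a list average of 10.46 and 10.37 on day 0 and 8.79 and 8.85 on day 14. In WldS the myelin list averaged 11.22 and 11.27 on day 3, and the adipocyte list 9.26 and 9.06. The fibroblast and perineurial list was lower in C57BL/6 too, with 6, 2 and 5 of 7 genes on days 3, 7 and 14 (medians -1.31, -0.31 and -0.93), as was the mast cell list, with 5, 3 and 2 of 8 (-0.64, -0.31 and -0.35). Of all genes, 18.4%, 16.4% and 16.7% were called lower in C57BL/6 on days 3, 7 and 14. The part of these cells in the Serpind1 result was not tested. In such bulk samples, fewer cells of a type and less RNA per cell cannot be told apart.

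**Figure D3:**
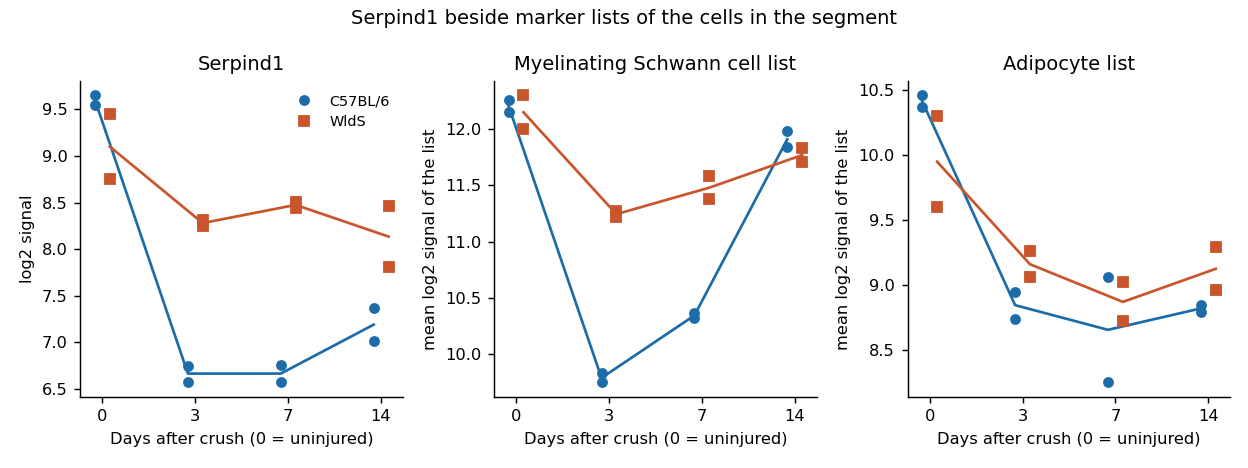
Log2 signal of Serpind1 and the mean log2 signal of the marker lists for myelinating Schwann cells and adipocytes (6 genes each) on each array, by days after crush, with lines through the group means (circles C57BL/6, squares WldS). On day 14 the C57BL/6 myelin list is back at 11.84 and 11.98, while Serpind1 reads 7.01 and 7.37 and the adipocyte list 8.79 and 8.85. The WldS adipocyte list reads 9.29 and 8.96 on that day.

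Around thrombin, the target of Serpind1, the prothrombin gene F2 was near the dim level at 5.44 ± 0.28 (SD, n = 2) in uninjured C57BL/6 nerves, with a change of -0.13 ± 0.15 on day 3 (limma adjusted p = 0.556). The list of thrombin and coagulation genes had 13 tested members, of which 7 were higher and 2 lower in C57BL/6 on day 3 and 8 higher and 0 lower in WldS. For this and the partner lists that follow, the shares of all genes on day 3 were 22.6% higher and 18.4% lower in C57BL/6 and 20.8% and 15.2% in WldS. Most partner genes are given only in the strain and on the day of their largest called change against day 0. Their values in the other strain and on other days are mostly left out, so no strain or day specificity is meant. Tfpi2, an inhibitor of coagulation proteases, rose by 2.96 ± 0.16 in WldS on day 7 (limma adjusted p = 2.72e-08). The coagulation factors F10 and F5 rose by 2.47 ± 0.19 and 1.75 ± 0.23 in WldS on day 3, and F7, the factor that starts the pathway with tissue factor, rose by 1.67 ± 0.27 in C57BL/6 on day 14.

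Serpinb6b and Serpinb6c belong to the mouse copies of the intracellular inhibitor SERPINB6. In C57BL/6, Serpinb6b read 7.75 and 8.02 on day 0, 6.20 and 5.55 on day 3, 5.49 and 5.40 on day 7, and 7.01 and 7.46 on day 14. In WldS it read 7.37 and 7.33, 6.90 and 7.27, 6.53 and 6.99, and 6.61 and 6.43. The C57BL/6 arrays were lowest on day 7, close to the dim level of 5.37, and no C57BL/6 array of day 3 or 7 reached the lowest WldS array. Serpinb6b fell in C57BL/6 by 2.01 ± 0.22 on day 3 (limma adjusted p = 4.39e-06) and by 2.44 ± 0.22 on day 7 (9.73e-07), then rose by 1.79 ± 0.22 from day 7 to day 14 (3.45-fold, 0.000167). Its change from day 0 on day 14 was -0.65 ± 0.22 (0.0327).

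In WldS the Serpinb6b change was -0.26 ± 0.22 on day 3 (limma adjusted p = 0.377), -0.59 ± 0.22 on day 7 (0.0501) and -0.83 ± 0.22 on day 14 (0.0148). The call of day 14 was lost in 3 of 27 settings, at -0.72 without both arrays of high 3'/5' ratio. The interaction was 1.75 ± 0.31 on day 3 (0.00345) and 1.85 ± 0.31 on day 7 (0.00361), both kept in all 27 alternative settings, and -0.18 ± 0.31 on day 14 (0.905). The rise from day 7 to day 14 in C57BL/6 fell in the same samples as a rise of 4 of 6 myelin genes (median 1.28), while the mast cell list, 5 of 8 lower on day 3, stood at 6.94 and 6.90 on day 7 and 6.81 and 6.94 on day 14. Of all genes, 2.48% were called higher in C57BL/6 from day 7 to day 14, and 18.4% lower on day 3. The part of these cells in the Serpinb6b result was not tested.

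Serpinb6c showed a smaller fall that did not come back. Its C57BL/6 arrays read 8.32 and 8.42 on day 0, 7.16 and 7.29 on day 3, 7.36 and 7.38 on day 7, and 7.25 and 7.39 on day 14. Its WldS arrays read 8.37 and 8.27, 7.95 and 8.31, 7.92 and 7.75, and 7.88 and 7.83, all above the injured C57BL/6 arrays. The C57BL/6 changes were -1.14 ± 0.13, -1.0 ± 0.13 and -1.05 ± 0.13 (limma adjusted p = 5.89e-06, 3.07e-05 and 2.68e-05). The WldS changes were -0.19 ± 0.13, -0.48 ± 0.13 and -0.46 ± 0.13 (0.275, 0.0101 and 0.0192). The WldS calls of days 7 and 14 were each lost in 5 of 27 settings. Without both arrays of high 3'/5' ratio these 2 changes were -0.43 and -0.39. The interaction passed on day 3 (0.95 ± 0.18, adjusted p = 0.00575) but not on day 7 (0.52 ± 0.18, 0.139) or day 14 (0.58 ± 0.18, 0.168). The probe set of Serpinb6c is of the kind that can match several transcripts of a gene family, so a part of its signal may come from a near copy.

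The other B6 copies were not called lower in any comparison with day 0. Serpinb6a, the copy closest in name to the human gene which read 11.71 to 12.52 over the arrays, was called only in WldS on day 3, where it was 0.53 ± 0.14 higher (limma adjusted p = 0.00985). That call was lost with the 3'/5' ratio as a covariate (0.14, adjusted p = 0.552) and without WldS day 0 replicate 1 (0.35, 0.107). Serpinb6e was called in no comparison with day 0 and was 0.19 ± 0.05 higher in WldS over the 4 time points (0.0202). This call was lost in 5 of 27 settings, among them the 3'/5' ratio as a covariate (0.16, limma adjusted p = 0.0654). In the RefSeq table Serpinb6e, Serpinb6c and Serpinb6a follow one another, and Serpinb6b stands apart from them next to Serpinb9.

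Among secreted members, Serping1 (C1 inhibitor), which blocks the C1r and C1s proteases of complement, had a mean of 12.61 over the 16 arrays. In C57BL/6 it read 13.03 and 12.95 on day 0, 12.07 and 12.16 on day 3, 12.68 and 12.75 on day 7, and 12.45 and 12.39 on day 14. It fell by 0.87 ± 0.16 on day 3 (limma adjusted p = 0.000473), rose by 0.60 ± 0.16 from day 3 to day 7 (0.0159) and stood at -0.57 ± 0.16 from day 0 on day 14 (0.0125). In WldS it was 12.30 and 12.83 on day 0 and 12.70 and 12.60 on day 3, with a change of 0.09 ± 0.16 (0.704). The day 3 interaction was 0.96 ± 0.22 (limma adjusted p = 0.0207). It was 0.70 (adjusted p = 0.0697) without WldS day 0 replicate 1, the array with the highest 3'/5' ratio, and it was lost in 6 of 27 settings.

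The targets of Serping1 and the C1q genes were measured as a list of complement C1 and lectin pathway genes with 6 tested members. In C57BL/6 on day 3, 3 were higher and 2 lower, and in WldS 3 were higher and 0 lower. C1qa, a C1q chain made by macrophages, rose by 2.13 ± 0.23 in WldS on day 3 (limma adjusted p = 6.39e-06), and C1qb rose by 1.80 ± 0.33 in C57BL/6 (0.000476). The proteases C1ra and C1s1 instead fell in C57BL/6 on day 3, with changes of -0.73 ± 0.22 and -0.57 ± 0.20 (0.0176 and 0.039). In WldS, C1s1 rose by 1.14 ± 0.20 on day 7 (0.000718).

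Serpinf1 (PEDF), a secreted member with no inhibitory activity that acts on vessels, neurons and fat, read 12.16 and 11.92 on day 0 in C57BL/6 and 11.39 and 11.13 on day 3. Its fall was 0.78 ± 0.22 on day 3 (limma adjusted p = 0.012) and 0.99 ± 0.22 on day 14 (0.00336), and the change on day 7 was -0.56 ± 0.22 (0.0676). Its WldS changes of -0.20, 0.26 and -0.24 did not pass, nor did the interactions of 0.58, 0.82 and 0.75 (0.336, 0.186 and 0.355). A second probe set for Serpinf1, with a lower mean of 9.06, gave -0.34 ± 0.25 on day 3 (0.366) and -0.65 ± 0.25 on day 14 (0.0854). Of the 5 genes listed for PEDF receptors, 3 were lower and 1 higher in C57BL/6 on day 3. Pnpla2, a lipase that binds PEDF, fell by 1.26 ± 0.20 on day 7 (0.00025).

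Serping1 and Serpinf1 moved in C57BL/6 with the list of fibroblast and perineurial markers, of which 6 of 7 were lower on day 3 (median -1.31), 2 on day 7 (-0.31) and 5 on day 14 (-0.93). That list averaged 12.09 and 12.16 on day 0, 11.01 and 11.06 on day 3, 11.72 and 11.73 on day 7, and 11.40 and 11.35 on day 14. In WldS only 2 of 7 were lower on day 3 (median -0.10). The shares of all genes called lower were 18.4%, 16.4% and 16.7% in C57BL/6 on days 3, 7 and 14. In WldS on day 3 the share was 15.2%. The part of these cells in both serpins was not tested.

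Serpinh1 (Hsp47), the chaperone that binds newly made collagen in the endoplasmic reticulum, was the only serpin called higher on all 3 days in both strains. In C57BL/6 it read 11.65 and 11.80 on day 0, 12.28 and 12.74 on day 3, 12.95 and 12.96 on day 7, and 12.94 and 12.97 on day 14. In WldS it read 11.87 and 11.79, 12.43 and 12.48, 13.26 and 12.70, and 12.74 and 12.40. Every injured array lay above every uninjured array, and the strains overlapped on every day except day 14, when both C57BL/6 arrays were above both WldS arrays. The rise was 0.79, 1.23 and 1.23 in C57BL/6 (SE 0.18, limma adjusted p = 0.00286, 0.000103 and 0.00013) and 0.63, 1.15 and 0.74 in WldS (0.0145, 0.000274 and 0.00965). The WldS call of day 3 was lost in 5 of 27 settings, at 0.47 with the 3'/5' ratio as a covariate (limma adjusted p = 0.223). That of day 14 was lost in 2 of 27, at 0.57 without WldS day 14 replicate 1. The interactions were -0.16, -0.09 and -0.49 (SE 0.26, adjusted p = 0.785, 0.894 and 0.502). A second probe set gave larger rises, 1.13, 1.53 and 1.42 in C57BL/6 and 1.32, 1.77 and 1.12 in WldS, so the size of the change depended on the probe set and its direction did not.

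The partners of Serpinh1 in collagen folding moved the same way in part. Of 13 tested genes, 9 were higher and 1 lower in C57BL/6 on day 3, and 8 higher and 1 lower in WldS. On day 7 the counts were 7 higher and 1 lower in C57BL/6 and 11 higher and 0 lower in WldS. Of all genes, 19.6% were higher and 16.4% lower in C57BL/6 on day 7, and 21.9% and 13.3% in WldS. P4hb, a subunit of prolyl hydroxylase, rose by 1.21 ± 0.16 in WldS on day 7 (limma adjusted p = 5.81e-05). The lysyl hydroxylases Plod3 and Plod2 rose by 1.21 ± 0.14 in C57BL/6 on day 3 and by 1.20 ± 0.15 in WldS on day 7, and Crtap, of the prolyl 3-hydroxylation complex, rose by 1.08 ± 0.18 in WldS on day 7.

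Serpinb1a, an intracellular inhibitor of neutrophil elastase and related leukocyte proteases, rose early. It read 6.98 and 7.68 in uninjured C57BL/6 nerves, 8.49 and 8.40 on day 3, 7.87 and 7.79 on day 7, and 7.76 and 8.08 on day 14. In WldS it read 7.08 and 7.39, 8.69 and 9.0, 8.11 and 8.38, and 7.82 and 7.72. It was highest on day 3 in both strains, with no overlap with day 0. The rise on day 3 was 1.12 ± 0.20 in C57BL/6 (limma adjusted p = 0.000437) and 1.60 ± 0.20 in WldS (2.79e-05). It was 1.01 ± 0.20 in WldS on day 7 (0.00156), and the interaction on day 3 was 0.49 ± 0.28 (0.372). A second, dimmer probe set for Serpinb1a (mean 5.69) did not share the rise, at 0.40 ± 0.18 in C57BL/6 and -0.09 ± 0.18 in WldS on day 3 (0.141 and 0.762), so the rise rests on 1 probe set. All 10 macrophage genes and 3 of 9 neutrophil genes were higher on day 3 in each strain. The shares of all genes called higher were 22.6% in C57BL/6 and 20.8% in WldS. The part of these cells in the Serpinb1a result was not tested.

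The leukocyte proteases that such serpins inhibit, 8 tested, gave 3 higher and 3 lower in C57BL/6 on day 3 and 2 higher and 0 lower in WldS. Prtn3 (proteinase 3) rose by 1.68 ± 0.16 in C57BL/6 on day 3 (limma adjusted p = 9.44e-07), and Gzma (granzyme A) by 2.00 ± 0.25 in WldS on day 3 (2.83e-05). Gzmb (granzyme B) rose by 1.79 ± 0.34 in C57BL/6 on day 7, and the mast cell chymase Mcpt4 fell by 1.21 ± 0.27 on day 14. Neutrophil elastase itself, Elane, was not among the called genes on day 3, at 0.19 ± 0.13 in C57BL/6 (0.29) and -0.14 ± 0.13 in WldS (0.447).

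Serpina3n, a secreted acute phase serpin that inhibits leukocyte elastase and granzyme B, was higher after injury in WldS. In C57BL/6 it read 9.17 and 9.02 on day 0, 9.68 and 9.24 on day 3, 8.92 and 8.82 on day 7, and 8.53 and 8.84 on day 14. In WldS it read 8.83 and 9.16, 10.11 and 10.12, 9.47 and 9.66, and 9.51 and 9.26, so every injured WldS array lay above the C57BL/6 arrays of the same day. The WldS rise was 1.12 ± 0.16 on day 3 (limma adjusted p = 0.000118) and 0.57 ± 0.16 on day 7 (0.0156), the second lost in 6 of 27 settings. On day 7 it was 0.41 without WldS day 0 replicate 1 (0.131), 0.41 without both arrays of high 3'/5' ratio (0.122), 0.48 without WldS day 7 replicate 2 (0.0965) and 0.37 with that ratio as a covariate (0.227). The C57BL/6 changes were 0.37, -0.22 and -0.40 (0.0904, 0.332 and 0.0749). The interactions of 0.75, 0.79 and 0.79 did not pass (0.0815, 0.077 and 0.135), so a difference in the response was not shown. The strains did differ at equal days, by 0.65 ± 0.16 on day 3, 0.70 ± 0.16 on day 7 and 0.70 ± 0.16 on day 14 (0.0216, 0.0183 and 0.0221). In WldS, 4 of 7 endothelial genes were higher on days 3 and 7 (median 0.70 and 0.75), against 0 and 1 in C57BL/6. The shares of all genes called higher on these days were 20.8% and 21.9% in WldS and 22.6% and 19.6% in C57BL/6. The part of these cells in the Serpina3n result was not tested.

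**Figure D4:**
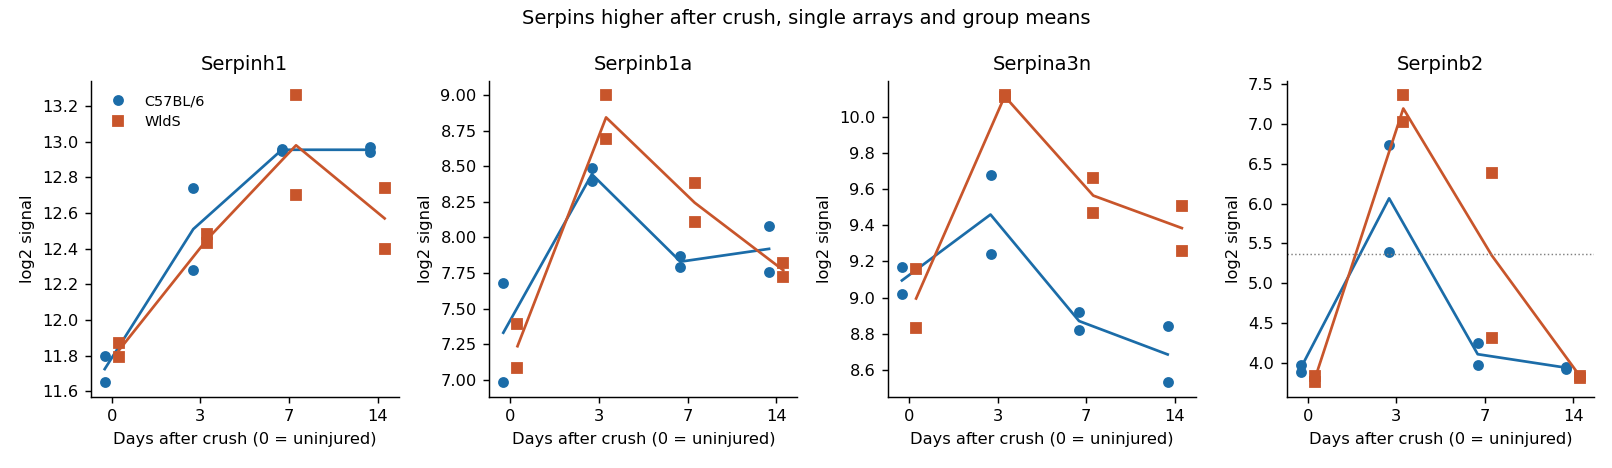
Log2 signal of Serpinh1, Serpinb1a, Serpina3n and Serpinb2 on each array (circles C57BL/6, squares WldS) by days after crush, with lines through the group means; the dotted line in the Serpinb2 panel is the dim level of 5.37. Serpinb2 peaks on day 3 at 7.03 and 7.36 in WldS and 5.39 and 6.74 in C57BL/6, and is back at 3.83 and 3.81 or 3.92 and 3.95 on day 14.

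The remaining clade B serpins changed less. Serpinb8, an intracellular inhibitor of furin, rose by 0.53 ± 0.13 and 0.88 ± 0.13 in C57BL/6 on days 3 and 7 (limma adjusted p = 0.00429 and 0.000103) and by 0.56, 0.45 and 0.39 in WldS (0.00354, 0.0153 and 0.0428), the last lost in 12 of 27 settings. It was lower in WldS on day 7, by -0.62 ± 0.13 (0.00797), but its second probe set gave -0.20 ± 0.10 there (0.507), so this strain difference rests on 1 probe set. Serpinb9, the intracellular inhibitor of granzyme B, rose in WldS by 0.58 ± 0.10 on day 3 (0.000632) and 0.53 ± 0.10 on day 7 (0.00144), with C57BL/6 changes of 0.08 and 0.10 and interactions of 0.50 ± 0.15 and 0.43 ± 0.15 that did not pass (0.0648 and 0.128). Serpinb9b rose in WldS on day 7 only, by 0.55 ± 0.16 (0.0166).

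Serpina1b and Serpina1c, copies of the alpha-1-antitrypsin gene, had means of 5.82 and 6.44, not far above the dim level, and were called lower on some days. Serpina1b fell in WldS by 0.59 ± 0.13 on day 3 (limma adjusted p = 0.0027) and fell by 0.50 ± 0.13 on day 7 (0.00809), and Serpina1c changed by -0.42 ± 0.12 and -0.46 ± 0.12 (0.0172 and 0.0106). Serpina1c also fell by 0.38 ± 0.12 in C57BL/6 on day 14 (0.0282). With the 3'/5' ratio as a covariate none of these 4 WldS changes passed: Serpina1b was at -0.34 and -0.29 (adjusted p = 0.151 and 0.186) and Serpina1c at -0.26 and -0.32 (0.318 and 0.16). Without both arrays of high ratio, Serpina1b kept its call on day 3 (-0.51, 0.0229) and stood at -0.42 on day 7 (0.055), and Serpina1c stood at -0.37 and -0.41 (0.0738 and 0.0509). A second Serpina1b probe set, with a mean of 5.60, was not called in WldS on day 3 or 7. It gave -0.40 ± 0.22 on both days (limma adjusted p = 0.231 and 0.227). In C57BL/6 on day 3 it gave -0.58 ± 0.22 (0.0737), where the first gave -0.30 ± 0.12. The copies of this gene are near identical, so probes may read several of them.

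The 7 members called in no comparison were Serpina10, Serpina11, Serpina3a, Serpina3i, Serpinb3a, Serpinf2 (alpha-2-antiplasmin) and Serpini1 (neuroserpin, the neuronal inhibitor of tissue plasminogen activator). Their group means each spanned at most 0.41. Of plasminogen activation genes, 8 were tested: 4 were higher and 1 lower in C57BL/6 on day 3, and 5 higher and 2 lower in WldS. The activator itself, Plat, rose by 1.38 ± 0.17 in WldS on day 7 (limma adjusted p = 3.16e-05), and Plaur, the urokinase receptor, by 1.52 ± 0.12 in C57BL/6 on day 3 (1.84e-07). Vtn (vitronectin), the plasma protein that binds several serpins, fell by 2.24 ± 0.20 in C57BL/6 on day 3 (7.01e-07), with an interaction of 1.45 ± 0.29 (0.00759). Anxa2, a receptor for plasminogen and its activator, rose by 1.03 ± 0.17 in WldS on day 3.

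Of the 18 serpins below the dim level, 17 had group means that spanned at most 0.58. The exception was Serpinb2 (plasminogen activator inhibitor 2), an inhibitor of urokinase that macrophages make when activated, which the naming rule left out because its mean was 4.77; it was chosen after its values were seen. In C57BL/6 it read 3.88 and 3.97 on day 0, 5.39 and 6.74 on day 3, 4.24 and 3.97 on day 7, and 3.92 and 3.95 on day 14. In WldS it read 3.83 and 3.75, 7.03 and 7.36, 4.31 and 6.38, and 3.83 and 3.81. It was above the dim level on all 4 arrays of day 3 and on 1 WldS array of day 7.

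Because Serpinb2 passed no filter, it was tested in a fit of all genes without one. There it rose by 3.41 ± 0.50 in WldS (limma adjusted p = 0.000164) and by 2.14 ± 0.50 in C57BL/6 (0.00403) on day 3; the second was 1.47 (0.0627) without C57BL/6 day 3 replicate 2. In that fit 16.8% of all genes were called higher in WldS and 18.5% in C57BL/6. Signal on day 0 was below the dim level, so the size of the rise is uncertain; the day 3 mean was 3.54-fold above that level in WldS and 1.62-fold in C57BL/6. The WldS rise on day 7 (1.56 ± 0.50, 0.0315, beside 17.5% of all genes higher) rested on WldS day 7 replicate 2, and was 0.52 (0.357) without it. The strains did not differ past the threshold on day 3 (1.13 ± 0.50, 0.248; 0.0334 without either WldS day 7 array), and the interaction was 1.26 ± 0.70 (0.381). All 10 macrophage genes were higher on day 3 in both strains (median 2.00 in C57BL/6 and 2.54 in WldS), and 7 of 10 were still higher in C57BL/6 on day 14, when Serpinb2 was back at its day 0 level. Of 9 neutrophil genes, 3 were higher on day 3 in each strain and none in WldS on day 14. In the fit with the dim filter, which gave these counts, 22.6% of all genes were higher in C57BL/6 and 20.8% in WldS on day 3. On day 14 the shares were 17.1% and 12.7%. The part of these cells in the Serpinb2 peak was not tested.

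Among the other dim members, 3 of 17 were called in that fit against day 0, each in WldS and lower, beside 12.9%, 11.6% and 7.11% of all genes called lower in it on days 3, 7 and 14. Serpina5 changed by -0.36, -0.42 and -0.34 on days 3, 7 and 14 (limma adjusted p = 0.00999, 0.00463 and 0.0247), Serpina9 by -0.38 and -0.53 on days 3 and 7 (0.0462 and 0.0101), and Serpinb9d by -0.30 on day 7 (0.0285). Each of them started from uninjured WldS arrays, 1 of which had the highest 3'/5' ratio.

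Between injured days, C57BL/6 had 3 of 22 serpins called from day 3 to day 7 (1 higher, 2 lower, beside 20.3% of all genes, 9.6% higher and 10.7% lower) and 2 from day 7 to day 14 (1 higher, 1 lower, beside 5.27%, 2.48% and 2.79%). From day 3 to day 7 Serping1 rose while Serpina3n and Serpinb1a changed by -0.59 ± 0.16 and -0.61 ± 0.20 (limma adjusted p = 0.0213 and 0.0449). The Serpinb1a call was lost in 11 of 27 settings, at -0.57 to -0.66 without 1 array of either C57BL/6 group compared (0.0931 to 0.216). From day 7 to day 14 Serpinb6b rose and Serpinb8 fell by 0.54 ± 0.13 (0.0237). In WldS limma called 0 of 22 for both steps, beside 6.62% of all genes (3.04% higher, 3.58% lower) and 5.23% (1.61% and 3.62%), with 4 and 8 at an unadjusted p below 0.05.

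The strains were also compared at equal times. On day 0 limma called 0 serpins (0.227% of all genes, 0.0825% higher and 0.144% lower in WldS), with 7 at an unadjusted p below 0.05 and 3 called without WldS day 0 replicate 2. On day 3, 6 were higher in WldS and 0 lower, beside 9.44% of all genes (4.82% higher, 4.62% lower). On day 7, 4 were higher and 1 lower, beside 6.83% (3.86% and 2.97%), and on day 14, 4 were higher and 0 lower, beside 6.46% (2.9% and 3.55%). Over the mean of the 4 time points 6 were higher and 1 lower, beside 17% (7.32% and 9.72%). Serpina3n, Serpinb6c and Serpind1 were higher in WldS on each injured day. Of these calls, that of Serpinb9 on day 3 was lost in 20 of 27 settings, that of Serping1 on day 3 in 15 and that of Serpinb6c on day 7 in 12. Over the mean of the 4 time points, the call of Serpinb9 was lost in 20 of 27 settings, down to 0.04 (adjusted p = 0.604) with the mean of all its probe sets, and that of Serpina1c in 8 of 26.

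Across the 22 members the response differed between strains for 4 on day 3 (Serpinb6b, Serpinb6c, Serpind1 and Serping1), beside 6.16% of all genes, for 2 on day 7 (Serpinb6b and Serpind1), beside 4.11%, and for 1 on day 14 (Serpind1), beside 1.58%. Each of these interactions was positive, with 4.02%, 2.89% and 0.908% of all genes called positive and 2.15%, 1.22% and 0.674% negative on those days. All 4 had fallen on day 3 in C57BL/6 and had fallen less, or had not changed past the threshold, in WldS. The median interaction over the 22 was 0.06, -0.05 and 0.08, beside 0.00, 0.01 and 0.03 for all genes.

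**Figure D5:**
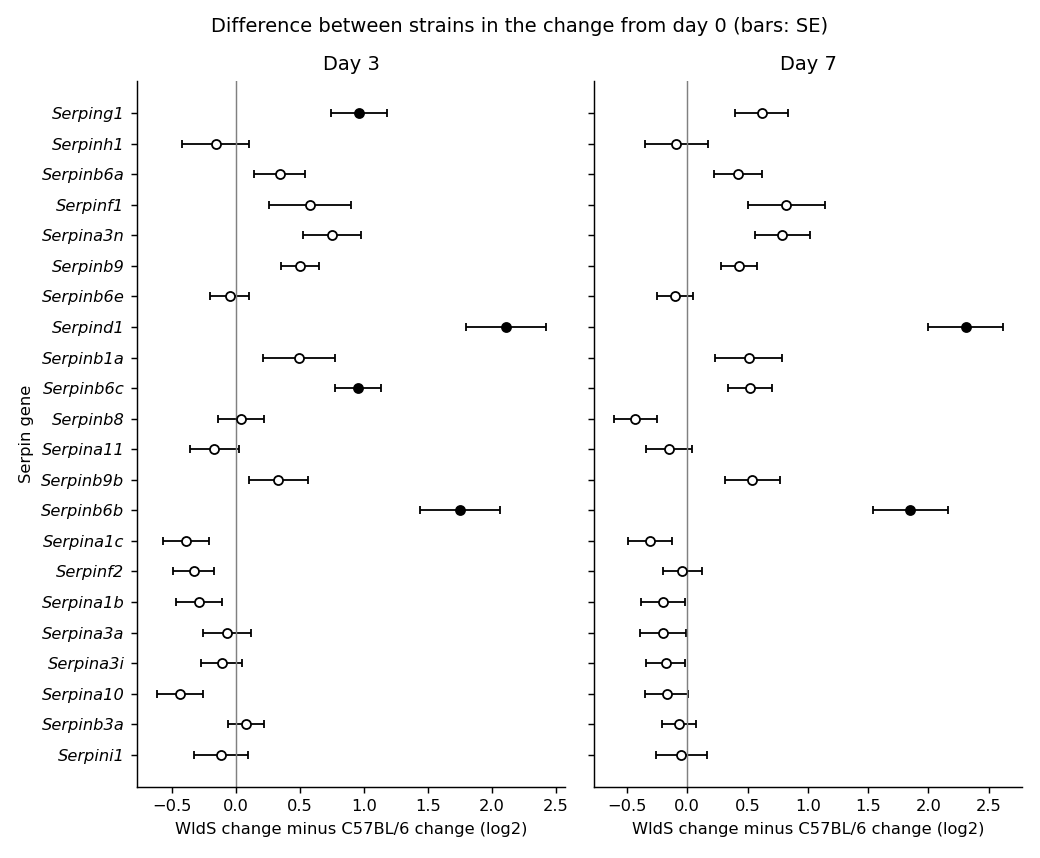
WldS change from day 0 minus C57BL/6 change (log2, bars are the SE) for the 22 serpins on day 3 and day 7; filled circles have an adjusted p below 0.05. Serpind1 lies at 2.11 and 2.31 and Serpinb6b at 1.75 and 1.85, while Serping1 (0.96) and Serpinb6c (0.95) are filled on day 3.

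Inhibitors from other families were counted as a further list. Of 9 tested genes, 1 was higher and 4 lower in C57BL/6 on day 3, and the same counts held in WldS. The Kunitz inhibitor Spint1 fell by 2.58 ± 0.16 in C57BL/6 on day 7 (limma adjusted p = 3.39e-08), Itih2 fell by 1.86 ± 0.20 on day 3 and A2m (alpha-2-macroglobulin) fell by 1.53 ± 0.29 on day 14, and the leukocyte protease inhibitor Slpi rose by 0.85 ± 0.16 on day 3. The lysosomal cathepsins, some of which are serpin targets, rose almost without exception. All 8 were higher in C57BL/6 on each day, all 8 in WldS on days 3 and 7, and 7 on day 14. Of all genes, 22.6%, 19.6% and 17.1% were higher in C57BL/6 on days 3, 7 and 14, and 20.8%, 21.9% and 12.7% in WldS. Ctss rose by 2.58 ± 0.14 in C57BL/6 on day 14, Ctsh by 2.07 ± 0.19 in WldS on day 3, Ctsd by 2.01 ± 0.17 in C57BL/6 on day 7 and Ctsk by 1.83 ± 0.15 in WldS on day 7.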

How the data were processed

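RNA was hybridised to Affymetrix Mouse Genome 430 2.0 arrays, 1 per pool. The authors deposited log2 expression values for 45101 probe sets; GCOS 1.4, RMA, limma and Partek are named in the submitters' processing notes, without roles. The deposited log2 values were used without further normalization. Probe sets with 1 symbol (34945) were reduced to 18193 genes. The 932 with several symbols, 3 of them serpins, were left out, as were 64 controls and 9160 unnamed probe sets. limma 3.58.1 (R 4.3.3) fitted 8 group means to all 16 arrays (8 residual degrees of freedom) for 18 contrasts; p-values were two-sided and adjusted over 14545 genes. Single arrays were given for serpins called with an absolute log2 change of at least 1 and, outside that rule and chosen after their values were seen, for Serping1, Serpinf1 and Serpinb2; partners were named for up to 4 called genes per list by largest change. The serpins and the lists were chosen with earlier results of these data known. In simulated data of 14545 genes, only WldS day 3 was changed, in 50 genes for each size of change (0.5, 1, 2 and -1). Against day 0, a change of 1 was called for 88% of 50 genes and a change of 0.5 for 38%. An interaction on day 3 of 1 was called for 58% and one of 0.5 for 6%. In the data, 36% of all genes were called in WldS on day 3 against day 0. With so few genes changed, the adjusted threshold was stricter in the simulation, so these rates do not carry over to the data. Replicate numbers were not treated as pairs in the main fit. Alternatives covered filter, normalization, probe set rule, block, 3'/5' ratio and left-out arrays.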

Additional observations from a re-analysis of the deposited data

Results flagged for a closer look

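For 4 serpins a test of the difference itself found that the change from day 0 differed between the strains (limma interaction term, adjusted over 14545 genes). Serpind1 differed by 2.11 on day 3 (adjusted p = 0.000878), 2.31 on day 7 (0.000738) and 1.44 on day 14 (0.0345). Serpinb6b differed by 1.75 on day 3 (0.00345) and 1.85 on day 7 (0.00361). Serpinb6c differed by 0.95 (0.00575) and Serping1 by 0.96 (0.0207) on day 3. The sign is positive in each: all 4 were lower after crush in C57BL/6 and fell less, or did not pass, in WldS. Over all genes tested, 4.02% were called with a positive interaction on day 3, 2.89% on day 7 and 0.908% on day 14.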

How the results depend on the processing

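The 79 calls of single serpins were recomputed under up to 27 settings each, 2126 comparisons in all: 1887 kept the call and the direction, 239 lost the call and 0 reversed, and 35 of the 79 kept it throughout. Counts of serpins called that moved by over 1.5 times were, with the 3'/5' ratio as a covariate, 8 instead of 5 in C57BL/6 on day 7 and 2 instead of 0 in WldS from day 3 to day 7. With the arrays of the compared groups alone they were 2 instead of 10 in WldS on day 7, 1 instead of 5 on day 14, 4 instead of 2 in C57BL/6 from day 7 to 14, 3 instead of 5 between strains on day 7, and 0 instead of 1 for the day 14 interaction. Without both arrays of high ratio they were 2 instead of 5 in WldS on day 14, 2 instead of 4 between strains on day 14 and 1 instead of 0 in WldS from day 3 to 7. No dim filter and cyclic loess each gave 1 instead of 0 in WldS from day 3 to 7, and the mean of all probe sets and median centring each gave 1 instead of 0 in WldS from day 7 to 14. With the replicate number as a block, the day 14 interaction gave 0 instead of 1 (Serpind1, adjusted p = 0.05), and no other count moved by over 1.5 times. Arrays of equal replicate number showed no deviation common to all groups: over 28 pairs of groups the deviations correlated between -0.58 and 0.19, and 5 exceeded 0.1. With 2 arrays per group, this cannot exclude that pools of equal number were handled together.

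Leaving out 1 array at a time, the counts ranged from 4 to 10 in C57BL/6 on day 14; 4 to 9, 6 to 11 and 1 to 6 in WldS on days 3, 7 and 14; 0 to 4 and 1 to 2 in C57BL/6 from day 3 to 7 and 7 to 14; and 0 to 1 in WldS for both steps. Between strains they ranged from 0 to 3, 3 to 6, 2 to 5 and 1 to 5 on days 0, 3, 7 and 14, from 4 to 9 over the mean of the 4 time points, and from 2 to 5 and 0 to 4 for the interactions on days 7 and 14. Against day 0, the counts moved by over 1.5 times without C57BL/6 day 0 replicate 1 (4) or day 14 replicate 2 (5) for C57BL/6 on day 14. For WldS they moved without WldS day 3 replicate 1 (4) on day 3, without day 0 replicate 1 (6) on day 7, and without day 0 replicate 2 (3) or day 14 replicate 1 (2) or 2 (1) on day 14. From day 3 to 7 in C57BL/6 the count was 0 without day 3 replicate 1 or either day 7 array, and from day 7 to 14 it was 1 without day 7 replicate 2 or either day 14 array. Between strains it was 3 on day 0 without WldS day 0 replicate 2, and 3 on day 3 without C57BL/6 day 3 replicate 2 or either WldS array. On days 7 and 14 it moved without any 1 of the 4 arrays compared, and over the mean it was 4 when replicate 2 of C57BL/6 day 7, or of WldS day 3, was left out. Without WldS day 0 replicate 2 the interactions numbered 5 on day 7 and 4 on day 14. A group of 1 array was then assumed to vary like the others. Where no other value is given, the cause was not tested. Signal near the dim level limits Serpinb2 and the dim members.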
